A study of Mus musculus with 10 samples.

Results

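Proteasome transcripts were followed in hippocampus from 10 C57BL/6 mice, males 30 months of age, 5 on the control diet and 5 under long-term calorie restriction, with 1 mouse on each Affymetrix array. The members were all probe sets, groups of short probes for a transcript, that the platform annotation gives exactly 1 gene symbol starting with Psma, Psmb, Psmc, Psmd, Psme, Psmf or Psmg. There were 58 such probe sets of 12488 on the array, and they stood for 46 genes. Another 2 probe sets named both Psme2 and Psme2b and were left out by this rule. Of the 46 genes, 44 encode subunits, activators or assembly factors of the proteasome. The other two entered by the start of their symbols only: Psmc3ip acts in meiotic recombination and Psme3ip1 binds an activator. The sources used here do not give the amount of restriction or the age at its start, and whole hippocampus mixes neurons, glia and vessel cells.

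The proteasome is the barrel-shaped protease that degrades proteins tagged with ubiquitin. Its core has outer rings of alpha subunits, which form the gate, and inner rings of beta subunits, of which Psmb5, Psmb6 and Psmb7 carry the catalytic sites. The regulatory particle that sits on the core has a base, with a ring of Psmc ATPases that unfold the substrate, and a lid, which removes the ubiquitin chain. Immune signals such as interferon gamma replace the catalytic subunits by Psmb8, Psmb9 and Psmb10, giving the immunoproteasome, and raise the activator subunits Psme1 and Psme2. In neurons the proteasome is known for its part in protein turnover at synapses.

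Between diets, 3 member probe sets were higher in calorie restricted mice, those of Psmd1, Psmd7 and Psme1, and 2 were lower, 1 each of Psmb5 and Psmc3. These 5 came from 4 different structural groups, and the other 44 of the 49 tested did not pass. The share of members called was thus 10.2%, against 11.8% of all 7453 probe sets tested. Signals of the groups did not overlap in 5 of the 49 members, or 10.2%, against 14.3% of all tested. At an unadjusted p under 0.05 there were 13 members, or 26.5%, against 31.6%. The share of proteasome probe sets that moved with diet was therefore near the background in each of these counts. A probe set was called at a Benjamini-Hochberg adjusted p under 0.05 in limma, a linear model fitted over all tested probe sets, and it was tested where its mean log2 signal was at least 6.85.

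Of the called genes, Psmb5, Psmd1 and Psme1 have a promoter in the RefSeq table, and the 250 bases before their start are shown with those of Psmb8, the inducible counterpart of Psmb5, since the data below turn on these genes. Capitals mark matches, on either strand, to the CCAAT box (CCAAT), the antioxidant response element core (TGACNNNGC), the interferon-stimulated response element core (GAAA, any 2 bases, GAAA), the gamma-activated site (TTCNNNGAA), the GC box (GGGCGG) and the TATA box (TATAAA). In build GRCm38.p6, Psmb5 lies at chr14:54617996-54618245 on the minus strand, Psmd1 at chr1:86064369-86064618 on the plus strand, Psme1 at chr14:55578244-55578493 on the plus strand and Psmb8 at chr17:34197945-34198194 on the plus strand.
Psmb5: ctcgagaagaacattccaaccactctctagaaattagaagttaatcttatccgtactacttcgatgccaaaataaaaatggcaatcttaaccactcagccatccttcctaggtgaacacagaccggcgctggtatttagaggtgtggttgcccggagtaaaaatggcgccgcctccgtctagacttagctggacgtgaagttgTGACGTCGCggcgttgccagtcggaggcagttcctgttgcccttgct
Psmd1: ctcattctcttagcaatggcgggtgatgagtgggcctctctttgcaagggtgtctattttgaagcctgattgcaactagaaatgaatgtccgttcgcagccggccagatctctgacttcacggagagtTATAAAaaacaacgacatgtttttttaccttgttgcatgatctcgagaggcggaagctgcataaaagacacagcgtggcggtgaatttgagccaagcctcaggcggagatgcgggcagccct
Psme1: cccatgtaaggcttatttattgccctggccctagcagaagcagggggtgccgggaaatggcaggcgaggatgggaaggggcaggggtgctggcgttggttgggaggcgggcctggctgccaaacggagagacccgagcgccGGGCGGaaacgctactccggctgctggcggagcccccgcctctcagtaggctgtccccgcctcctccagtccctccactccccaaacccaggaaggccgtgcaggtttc
Psmb8: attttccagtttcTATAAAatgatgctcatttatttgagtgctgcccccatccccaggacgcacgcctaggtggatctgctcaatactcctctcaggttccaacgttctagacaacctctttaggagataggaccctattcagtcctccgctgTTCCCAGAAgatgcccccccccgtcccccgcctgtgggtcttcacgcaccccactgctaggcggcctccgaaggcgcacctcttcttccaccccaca
These promoters did not share any of the listed motifs except the TATA letters, which lay 122 to 117 bases before the start of Psmd1 and 237 to 232 before that of Psmb8. Psmb5 had 1 match to the antioxidant response element core, TGACGTCGC, 47 to 39 bases before the start. Psme1 had 1 GC box, 109 to 104 bases before the start, and Psmb8 had 1 gamma-activated site, TTCCCAGAA, 97 to 89 bases before it.

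Promoters of 39 of the 46 genes were matched, using the first start listed for a gene, and those of Psmb1, Psmb2, Psmb7, Psmc3, Psmd3, Psmd7 and Psmg2 were not. The GC box was in 21 of the 39, or 53.8%, against 32.9% of 27025 promoters of the same length. Among the matched genes of the regulatory particle it was in 9 of 14 and among those of the core in 5 of 11. The CCAAT box was in 35.9% of member promoters against 34.5% of all, though in 6 of 11 core promoters. The antioxidant response element core, the letters bound by the factor Nfe2l1 that is known to induce proteasome genes, was in 5 of 39, or 12.8%, against 10.1%. For the interferon-stimulated response element core the shares were 7.69% and 3.04%, for the gamma-activated site 5.13% and 7.18%, and for the TATA box 10.3% and 13.0%. Matches overlapped one another in 4 of the 39 promoters, among them matches to the same motif on the same strand. These shares describe letters only and say nothing of binding.

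Genome position differs among the inducible subunits. In the RefSeq annotation of GRCm38.p6, Psmb8 lay between Tap1 and Tap2, the peptide transporter genes of the major histocompatibility complex, and Psmb9 lay between H2-DMb1 and Tap1. The coding genes next to Psmb10 were Ctrl and Lcat, outside that region. Psme1 and Psme2 lay on either side of Emc9, and Psmb5 had Psmb11, its thymus-specific paralog, as a neighbour.

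Array quality differed with the diet, which touches every comparison below. Gapdh and Actb have control probes near either end of the transcript, and their mean log2 ratio of 3' over 5' signal was 0.16 ± 0.24 in control and 2.88 ± 2.57 in calorie restricted mice (SD, n = 5 each; exact two-sided permutation p = 0.00794, adjusted p = 0.00992 over 5 array measures). A high ratio marks RNA that is broken or incompletely copied, and calorie restricted replicates 3 and 5 stood apart at 5.20 and 6.11, against 0.78 to 1.52 in the other calorie restricted arrays and at most 0.45 in control arrays. The mean log2 spike-in signal was 13.05 ± 0.47 against 11.12 ± 0.56 and the median log2 signal 7.49 ± 0.18 against 7.84 ± 0.05 (exact permutation p = 0.00794 and adjusted p = 0.00992 for both). Among markers of other kinds of cell, 2 of 5 tested probe sets of hippocampal neuron genes fell, 2 of 8 for astrocytes, 3 of 9 for oligodendrocytes and 2 of 3 for choroid plexus, and 0 rose in each. The 2 for astrocytes were both of Aqp4 and the 3 for oligodendrocytes all of Mobp. Another probe set of Mobp had a difference of 0.72 and did not pass (limma adjusted p = 0.0511). Of 4 tested endothelial probe sets 0 rose and 0 fell. Over all tested probe sets 4.11% were higher and 7.74% lower. The summed signals of these marker lists ran from 4556 to 7190 in control and from 2338 to 4376 in calorie restricted mice for hippocampal neuron genes, lower without overlap. For astrocytes they ran from 15340 to 20250 and from 21450 to 28400, higher without overlap, although 2 of the probe sets fell. Most of the astrocyte sum came from 1 probe set each of Aldoc and Gja1, which did not pass (limma adjusted p = 0.199 and 0.170). In calorie restricted replicate 5 the signal of Gja1 was 17520, while that of Aldoc was 7889, below every control array. For oligodendrocytes, choroid plexus and endothelium the sums overlapped. General neuronal markers were present, with mean log2 signals of 10.02 to 13.82 in control mice over 8 tested probe sets, while all 3 of the leukocyte gene Ptprc lay below the filter. Among neuronal markers 1 of 8 tested probe sets rose and 2 fell, and their summed signal ran from 32760 to 44870 in control and from 37000 to 47190 in calorie restricted mice. In whole tissue, fewer cells of a type and less RNA per cell cannot be told apart. The part of RNA quality and cell make-up in the results was not tested. Fits that leave out arrays or take the RNA quality ratio as a covariate are given as alternatives only. The diets did not overlap in this ratio, at most 0.45 in control and at least 0.78 in calorie restricted arrays. The covariate fit therefore cannot separate diet from RNA quality, whether a call is lost or gained in it.

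Of the 49 tested members 25 lay in the brightest of 5 equal bins of mean signal and 3 in the dimmest. Their median log2 difference, calorie restricted minus control, was 0.14, against -0.15 over all tested probe sets, and 31 of the 49, or 63.3%, lay above 0, against 39.4%. The median difference also depended on signal over the whole array, from -0.41 in the dimmest bin to 0.13 in the brightest. So did the calls: 1.28% were higher and 7.79% lower in the dimmest bin, and 11.1% and 2.15% in the brightest. Of the 25 members in the brightest bin 1 was higher and 1 lower. The median difference of members is given next by bin. Among members it was 0.14 in the brightest bin, close to that 0.13, and above the median of all probe sets in the other bins: 0.34 against -0.41 in the dimmest (3 members), then 0.12 against -0.31 (4), -0.15 against -0.23 (8) and 0.14 against -0.07 (9). The spread between calorie restricted arrays was smaller for members than for all tested probe sets of like signal, with a median SD of 0.33 against 0.41 in the brightest bin. Between control arrays it was not smaller, with a median SD of 0.287 for members and 0.285 for all tested probe sets, not matched for signal. Of the 9 untested members, those of Psmb9, Psmc4, Psmd2 and Psmc3ip were the only ones of their genes.

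**Figure D1:**
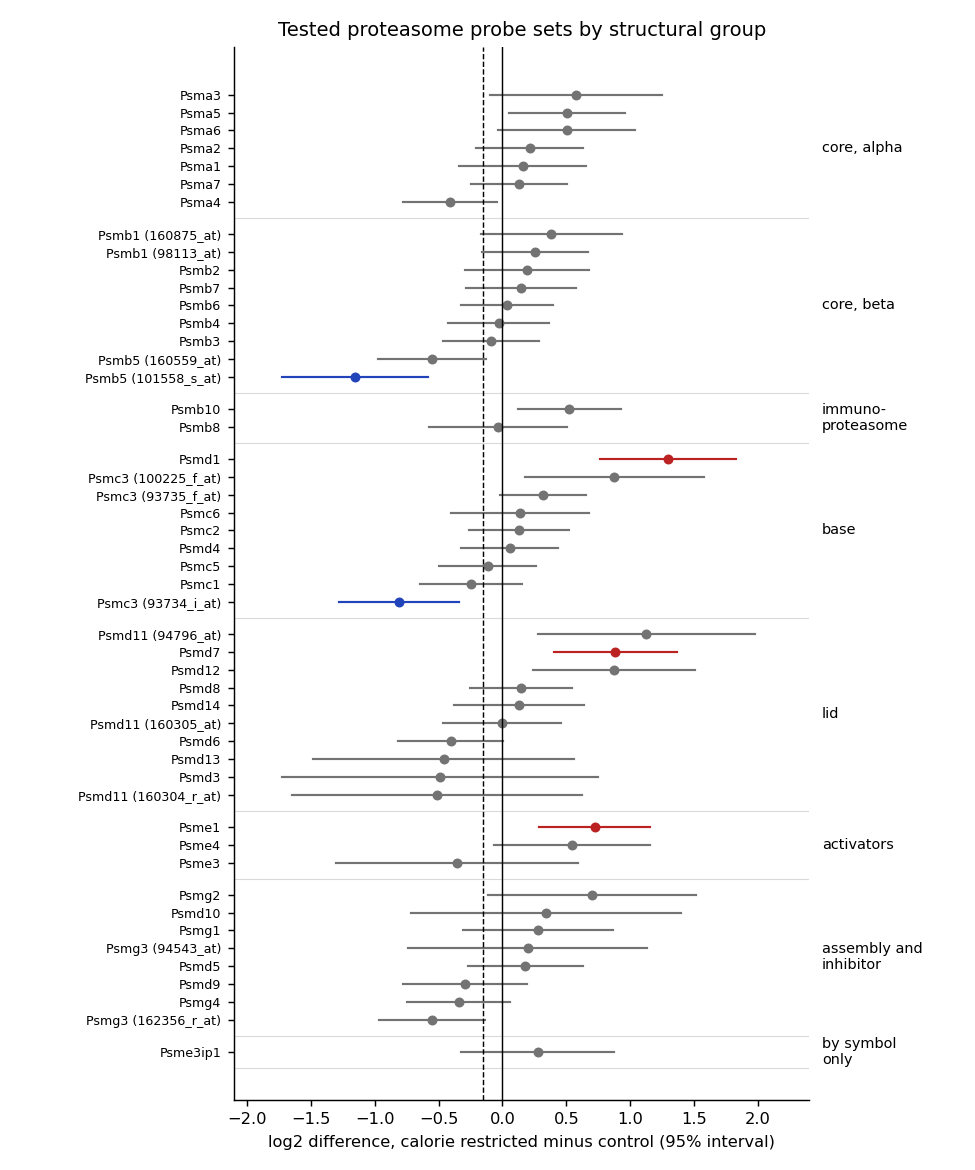
The log2 difference between diets is plotted for each of the 49 tested probe sets, grouped by structure, with 95% intervals from limma; red marks the 3 that were higher, blue the 2 that were lower and grey the rest, and the dashed line is the median of all tested probe sets at -0.15. Differences run from -1.15 for Psmb5 to 1.30 for Psmd1, and 3 probe sets each of Psmc3 and Psmd11 spread over both sides of 0.

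The alpha ring of the core showed no called change: 0 of 7 probe sets rose and 0 fell, with a median difference of 0.21 and a range of -0.41 to 0.57. Among all tested probe sets 4.11% were higher and 7.74% were lower, and in the brightest bin 11.1% and 2.15%. Psma5, an alpha subunit, had log2 signals of 10.50, 9.76, 9.81, 9.75 and 10.38 in control replicates 1 to 5 and 10.72, 10.72, 10.76, 10.18 and 10.36 in calorie restricted ones. Control replicates 2, 3 and 4 lay below all calorie restricted arrays, and the difference of 0.51 ± 0.21 (SE) did not pass (limma adjusted p = 0.120), though it did with arrays centred on their median, at 0.86 (adjusted p = 0.0233). Psma4 went the other way, with 10.92, 10.91, 11.43, 11.27 and 11.14 in control and 10.70, 10.47, 11.00, 10.90 and 10.56 in calorie restricted mice, a difference of -0.41 ± 0.17 (adjusted p = 0.121). The groups overlapped for both genes. Psma3 varied most among calorie restricted arrays of the ring, with an SD of 0.78 under restriction against 0.14 on the control diet, and 12.48 and 13.49 in replicates 3 and 5 against 11.45 to 12.19 in the other calorie restricted arrays. Its difference of 0.57 became 0.11 without those 2 arrays.

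In the beta ring the transcript of Psmb5, which carries the chymotrypsin-like site and is the main target of proteasome inhibitor drugs, was lower in calorie restricted mice. The probe set that passed had log2 signals of 10.87, 10.61, 11.01, 11.12 and 11.20 in control and 10.17, 10.00, 9.69, 10.33 and 8.85 in calorie restricted mice. All calorie restricted arrays lay below all control arrays, and replicate 5 was lowest. Means were 10.96 ± 0.23 and 9.81 ± 0.59 (SD, n = 5 each), a difference of -1.15 ± 0.26 (SE), or 2.22-fold lower (limma adjusted p = 0.0210), and -0.999 after the median of all tested probe sets was taken off. The other probe set of Psmb5 had 8.76, 9.01, 9.45, 9.49 and 8.88 in control and 8.75, 8.49, 8.67, 8.47 and 8.43 in calorie restricted mice. Here too the groups did not overlap, though only by 8.76 against 8.75, and the difference of -0.55 ± 0.20 did not pass (adjusted p = 0.0812). The called probe set has the suffix s, used for probes that can match several transcripts. Psmb5 missed the threshold at -0.61 (limma adjusted p = 0.123) when the fit included RNA quality, and without control replicate 3 or 4, at -1.14 and -1.11 (adjusted p = 0.0533 and 0.0556). It passed without calorie restricted replicates 3 and 5, at -0.79 (adjusted p = 0.0165).

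The other constitutive catalytic subunits did not show such a difference. Psmb6, with the caspase-like site, had 10.45, 10.18, 10.66, 10.56 and 10.25 in control and 10.50, 10.63, 10.49, 10.54 and 10.11 in calorie restricted mice. Psmb7, with the trypsin-like site, had 10.58, 10.29, 10.79, 10.65 and 9.94 and 10.39, 10.35, 10.94, 10.55 and 10.74. Both sets of arrays overlapped widely, with differences of 0.03 ± 0.16 and 0.15 ± 0.20 (SE; limma adjusted p = 0.906 and 0.637), and intervals of -0.32 to 0.39 and -0.29 to 0.58. Over the ring, 0 of 9 tested probe sets rose and 1 fell, against 4.11% higher and 7.74% lower over all tested probe sets. The median of the ring was 0.03. Psmb1, a structural subunit, had 11.92, 11.75, 11.50, 11.84 and 11.76 in control and 11.80, 11.39, 12.39, 12.14 and 12.97 in calorie restricted mice on 1 of its probe sets, 0.38 ± 0.25 (adjusted p = 0.317). Its 2 highest values came from replicates 3 and 5, and without them the difference was 0.02. Its other tested probe set had 0.25. Psmb2, Psmb3 and Psmb4 had differences of 0.19, -0.09 and -0.03. Below the filter lay 1 probe set of Psmb1 and 2 of Psmb4.

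**Figure D2:**
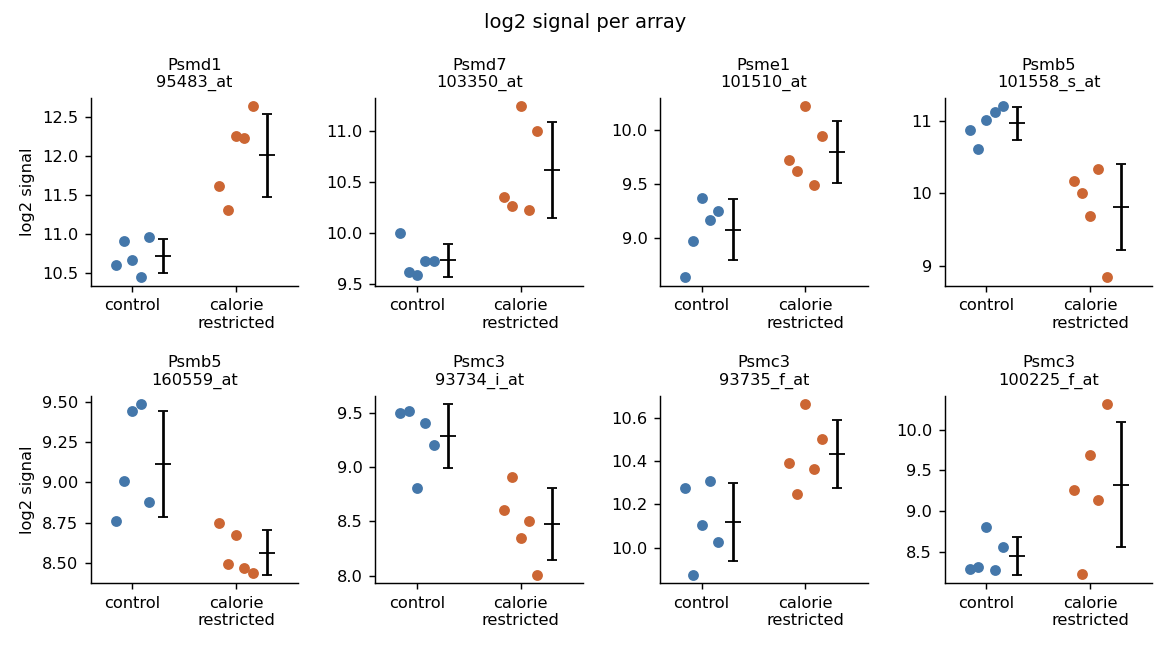
The log2 signal of each array is plotted for the 5 called probe sets and for the other tested probe sets of Psmb5 and Psmc3, with control in blue, calorie restricted in orange and the mean ± SD in black; each panel has its own scale. The diets do not overlap for Psmd1, Psmd7, Psme1 and both probe sets of Psmb5, and the 3 probe sets of Psmc3 point in different directions.

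Among the inducible catalytic subunits of the immunoproteasome, 0 of 2 tested probe sets rose and 0 fell. Psmb10, which replaces Psmb7, had log2 signals of 10.70, 10.47, 10.27, 10.42 and 9.83 in control and 11.06, 11.03, 10.85, 10.75 and 10.61 in calorie restricted mice. Only control replicate 1 reached into the calorie restricted range, and the difference was 0.52 ± 0.19 (SE; limma adjusted p = 0.0822). Psmb8, which replaces Psmb5, had 7.87, 7.77, 8.67, 8.40 and 7.96 and 7.93, 7.87, 8.27, 8.60 and 7.83, with full overlap and a difference of -0.04 ± 0.25 (adjusted p = 0.938; interval -0.57 to 0.50). Psmb9, which replaces Psmb6, lay below the filter with 5.25, 5.39, 6.95, 5.97 and 5.38 in control and 4.85, 5.01, 4.75, 6.67 and 5.61 in calorie restricted mice. Psmb10 passed when arrays were centred on their median, at 0.88 (adjusted p = 0.0114). Microglia, the immune cells of the brain, are a known site of these subunits. Of 10 tested microglial probe sets 0 rose and 2 fell, against 4.11% higher and 7.74% lower over all tested probe sets. The summed signal of 9 microglial genes was 9666 to 13680 in control and 7872 to 11470 in calorie restricted mice, with 0 values at 0. The part of microglial RNA in these levels was not tested.

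Each inducible subunit was then set against the constitutive one it replaces, as the log2 ratio within an array, which shows unequal change only. The Psmb8 to Psmb5 ratio was higher in calorie restricted mice by 1.12, with SDs of 0.33 in control and 0.51 in calorie restricted arrays and no overlap (exact two-sided permutation p = 0.00794, the smallest this design allows; adjusted p = 0.0238 over 3 ratios). With the second Psmb5 probe set the difference was 0.52 (exact permutation p = 0.0159, adjusted p = 0.0476). Between the parts of this ratio, Psmb5 carried a difference of -1.15 and Psmb8 one of -0.04. In calorie restricted replicates 1 to 5 the log2 ratio was -2.24, -2.13, -1.42, -1.74 and -1.01, highest in replicates 5 and 3, the arrays of poorest RNA quality. No fit of the ratio with RNA quality is given here, and Psmb5 itself missed the threshold in that fit, at -0.61 (limma adjusted p = 0.123). The Psmb10 to Psmb7 ratio differed by 0.38 (exact permutation p = 0.127, adjusted p = 0.190). For Psmb9 over Psmb6 it was -0.44 (exact permutation p = 0.333, adjusted p = 0.333), with Psmb9 below the filter. Without calorie restricted replicates 3 and 5 the Psmb8 to Psmb5 difference was 0.79, with an adjusted p of 0.0536, the smallest an exact permutation of 5 against 3 arrays can give over 3 ratios, so that no call was possible there.

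**Figure D3:**
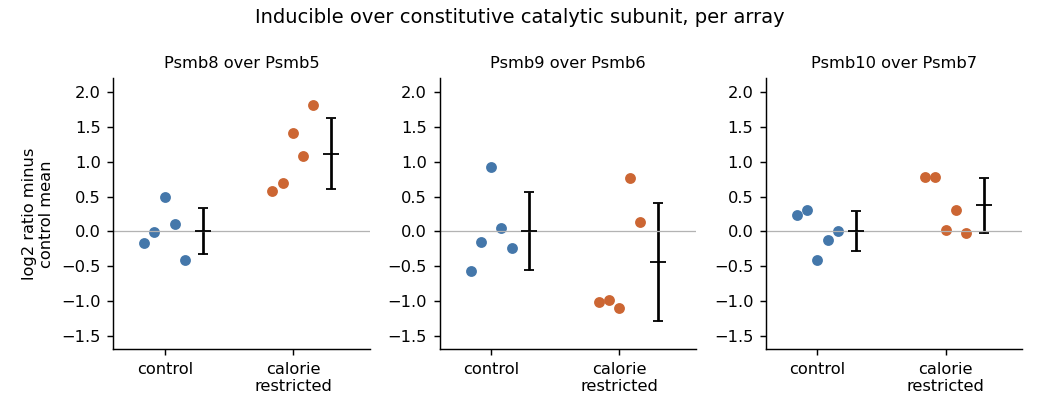
The log2 ratio of each inducible catalytic subunit to the constitutive one it replaces is plotted per array, minus the control mean, with control in blue, calorie restricted in orange and mean ± SD in black. The 5 calorie restricted arrays lie above all control arrays for Psmb8 over Psmb5, and the diets overlap for the other pairs.

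Within the base, Psmd1, the largest scaffold subunit, was higher in calorie restricted mice and had the smallest adjusted p of all members. Its log2 signals were 10.60, 10.91, 10.66, 10.44 and 10.96 in control and 11.62, 11.30, 12.25, 12.23 and 12.64 in calorie restricted mice. Every calorie restricted array exceeded every control array, with replicates 3, 4 and 5 highest. Means were 10.71 ± 0.22 and 12.01 ± 0.54 (SD, n = 5 each), a difference of 1.30 ± 0.24 (SE), or 2.45-fold higher (limma adjusted p = 0.0113), and 1.45 relative to the median change. Psmd1 passed in all 22 alternatives, from 0.81 with RNA quality as a covariate (adjusted p = 0.0491) to 1.65 with arrays centred on their median, and it was 1.0 without calorie restricted replicates 3 and 5 (adjusted p = 0.0166). Psmd4, a ubiquitin receptor beside it, had a difference of 0.06 and Psmd2, the other large scaffold, lay below the filter.

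The ATPase ring had 0 of 7 tested probe sets higher and 1 lower, against 4.11% and 7.74% of all tested. The 1 lower was 1 of 3 for Psmc3. The one that fell, with the suffix i, had 9.50, 9.51, 8.81, 9.40 and 9.20 in control and 8.61, 8.90, 8.35, 8.51 and 8.01 in calorie restricted mice. The groups overlapped, as control replicate 3 lay below calorie restricted replicate 2, and the difference was -0.81 ± 0.22 (SE; limma adjusted p = 0.0342). Both other probe sets of Psmc3, with the suffix f, had positive differences. On one the values were 10.28, 9.88, 10.10, 10.31 and 10.03 and 10.39, 10.25, 10.66, 10.36 and 10.50, a difference of 0.32 ± 0.16 (adjusted p = 0.183). On the other they were 8.29, 8.32, 8.81, 8.28 and 8.56 and 9.26, 8.24, 9.69, 9.14 and 10.31, a difference of 0.88 ± 0.32 (adjusted p = 0.0900). The suffix f is used for probes shared within a gene family and i for sets with fewer probes, and the direction of Psmc3 is not settled by these 3. Of the 49 tested members 11 carried a suffix. Among them were the only probe sets of Psma3, Psmb7, Psmd9 and Psmd12, the only tested one of Psmb4 and 1 each of Psmd11 and Psmg3. Both f sets passed with arrays centred on their median, at 0.67 and 1.23 (adjusted p = 0.0358 and 0.0449), and the second also without calorie restricted replicate 2, at 1.15 (adjusted p = 0.0198). The call of the i set was lost in 10 of 21 alternatives, by quantile normalization (-0.58, adjusted p = 0.0914), centring (-0.46, adjusted p = 0.140), including RNA quality (-0.51, adjusted p = 0.213), dropping calorie restricted replicates 3 and 5 (-0.61, adjusted p = 0.0755), leaving out control replicate 1, 2, 4 or 5 (-0.76, -0.75, -0.78 and -0.83) or calorie restricted replicate 3 or 4 (-0.78 and -0.82), and over these single arrays adjusted p ran from 0.0579 to 0.0852. Psmc1, Psmc2, Psmc5 and Psmc6 had differences from -0.25 to 0.14 and did not pass.

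Of the lid, 1 of 10 probe sets rose and 0 fell, against 4.11% higher and 7.74% lower over all tested probe sets. The lid had a median difference of 0.07 and a range of -0.51 to 1.12. The one that rose was Psmd7, the partner of the deubiquitinase Psmd14. Its log2 signals were 10.01, 9.62, 9.59, 9.73 and 9.73 in control and 10.36, 10.26, 11.24, 10.23 and 11.00 in calorie restricted mice. The groups did not overlap, and calorie restricted replicates 3 and 5 were highest. Means were 9.73 ± 0.16 and 10.62 ± 0.47 (SD, n = 5 each), a difference of 0.88 ± 0.22 (SE), or 1.85-fold higher (limma adjusted p = 0.0274), and 1.04 relative to the median change. Without those 2 arrays it was 0.55 and passed (adjusted p = 0.0367). With RNA quality in the fit it missed the threshold, at 0.42 (adjusted p = 0.182). It also missed it without control replicate 2, 3, 4 or 5 (0.86, 0.85, 0.88 and 0.88, adjusted p from 0.0526 to 0.0701) or calorie restricted replicate 3 (0.73, adjusted p = 0.0558). Psmd14 itself had a difference of 0.13.

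Psmd12, a scaffold subunit of the lid, and Psmd11, which holds the lid to the core, came next in the lid. Psmd12 had 8.97, 8.33, 7.87, 7.77 and 8.53 in control and 8.80, 8.64, 9.42, 9.09 and 9.86 in calorie restricted mice, 0.87 ± 0.29 (SE; limma adjusted p = 0.0683). Psmd11 had, on 1 of 3 probe sets, 9.99, 9.67, 11.02, 10.85 and 10.17 and 10.76, 10.51, 11.95, 11.53 and 12.58, 1.12 ± 0.39 (adjusted p = 0.0766). For both, calorie restricted replicates 3 and 5 were the highest arrays and the diets overlapped. Without these 2 arrays the differences were 0.55 and 0.59 (adjusted p = 0.216 and 0.246). For Psmd11 the remaining sets had differences of -0.51 and -0.0019, so that they did not share its direction. Leaving out calorie restricted replicate 2 brought Psmd12 to 1.0 and Psmd11 to 1.36, both past the threshold (adjusted p = 0.0422 and 0.0334). With arrays centred on their median they passed as well, at 1.22 and 1.48 (adjusted p = 0.0350 and 0.0424), and Psmd12 passed under quantile normalization, at 1.07 (adjusted p = 0.0497).

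Psmd3 and Psmd13, lid subunits, were picked after their values were seen, for the wide gap between calorie restricted replicates 3 and 5 and the rest. Their differences changed sign without those 2 arrays, as did those of 9 of the 49 tested members in all, the others being Psmb3, Psmb7, Psmc2, Psmc6, Psmd14, Psme3ip1 and 1 probe set of Psmd11. Psmd3, a lid scaffold, had 10.87, 11.10, 10.95, 11.03 and 10.56 in control and 11.78, 11.41, 9.60, 11.17 and 8.12 in calorie restricted mice. Psmd13 had 9.97, 9.81, 9.76, 9.55 and 10.04 and 10.12, 10.32, 9.11, 9.95 and 7.32. In both, replicates 3 and 5 were the lowest of all arrays, while replicates 1, 2 and 4, with means of 11.45 and 10.13, lay above every control array for Psmd3 and near the highest ones for Psmd13. The difference of Psmd3 was -0.49 ± 0.57 (SE; limma adjusted p = 0.581) over all arrays, 0.55 without replicates 3 and 5 (adjusted p = 0.0624) and 1.09 when the fit included RNA quality, where it passed (adjusted p = 0.0296). For Psmd13 these were -0.46 ± 0.47, 0.31 and 0.71, and it passed in none of them (adjusted p = 0.518, 0.231 and 0.188).

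**Figure D4:**
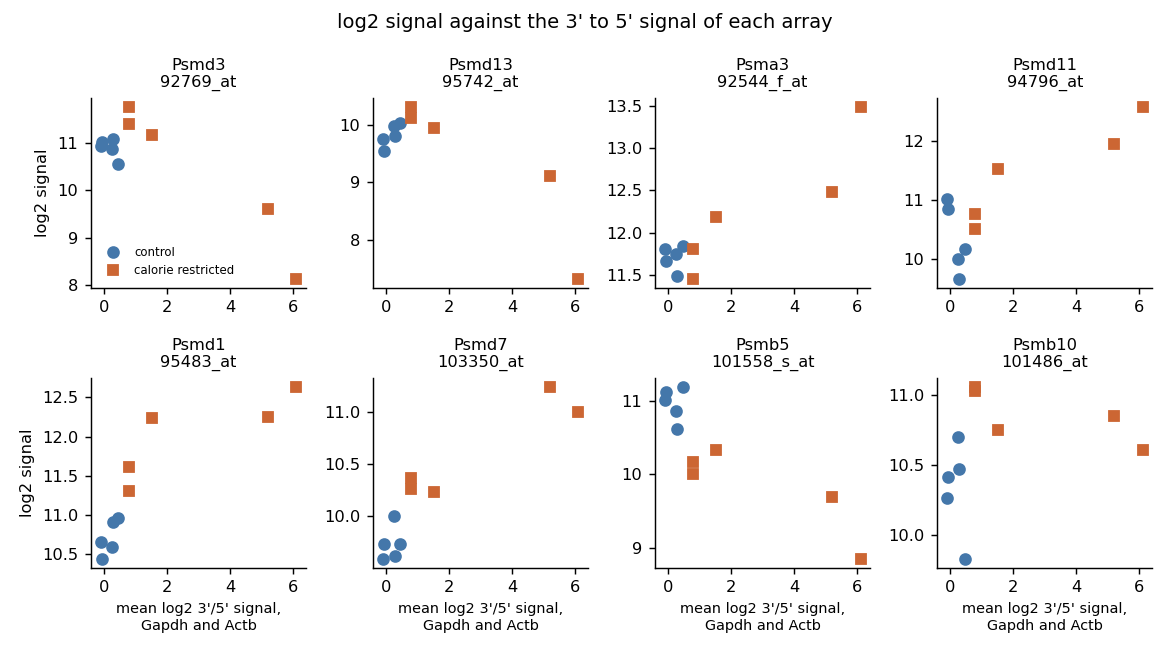
The log2 signal of 8 probe sets is plotted against the mean log2 3' to 5' signal of Gapdh and Actb on each array, with control as blue circles and calorie restricted as orange squares. Calorie restricted replicates 3 and 5, at 5.20 and 6.11, are lowest for Psmd3 and Psmd13 and highest for Psma3 and Psmd11, while for Psmb10 they lie below replicates 1 and 2.

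Of the activators, 1 of 3 tested probe sets rose and 0 fell, against 4.11% higher and 7.74% lower over all tested probe sets. Psme1, a subunit of the interferon-inducible cap that opens the core gate, had log2 signals of 8.63, 8.97, 9.37, 9.16 and 9.25 in control and 9.72, 9.62, 10.22, 9.49 and 9.95 in calorie restricted mice. The groups did not overlap. Means were 9.08 ± 0.29 and 9.80 ± 0.29 (SD, n = 5 each), a difference of 0.72 ± 0.20 (SE), or 1.65-fold higher (limma adjusted p = 0.0386), and 0.88 relative to the median change. Without calorie restricted replicates 3 and 5 it was 0.53 and did not pass (adjusted p = 0.0911). Including RNA quality gave 0.49 (adjusted p = 0.211), and testing all probe sets with no filter gave an adjusted p of 0.0514. Leaving out any of control replicates 1 to 5 (0.61, 0.70, 0.80, 0.74 and 0.77) or calorie restricted replicate 3 (0.62) also ended the call, with adjusted p from 0.0575 to 0.0887. The other probe set of Psme1 lay below the filter, with 4.53, 5.29, 5.14, 5.25 and 4.33 in control and 2.11, 5.43, 5.53, 2.78 and 4.78 in calorie restricted mice.

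Psme4, the large monomeric activator, and Psme3, the nuclear one, did not pass. Psme4 had 8.06, 8.05, 7.77, 7.40 and 8.79 in control and 8.37, 8.25, 9.06, 8.21 and 8.88 in calorie restricted mice, 0.54 ± 0.28 (SE; limma adjusted p = 0.205). Psme3 had 8.84, 9.22, 10.38, 10.47 and 8.09 and 8.78, 8.59, 8.67, 9.81 and 9.39, -0.35 ± 0.44 (adjusted p = 0.60). Control arrays spread widely for Psme3, with an SD of 1.02, and replicates 3 and 4 of the control group were its highest arrays. Psme3ip1, which binds Psme3, had 9.28, 9.53, 9.09, 9.33 and 9.46 and 9.36, 8.81, 10.06, 9.38 and 10.46, 0.28 ± 0.28 (adjusted p = 0.509), with calorie restricted replicates 3 and 5 highest.

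Assembly chaperones had 0 of 8 probe sets higher and 0 lower, against 4.11% and 7.74% of all tested probe sets. Their median was 0.19, with a range of -0.55 to 0.70. Psmg3, a core assembly chaperone, had 10.25, 10.58, 10.42, 10.52 and 9.85 in control and 9.79, 10.21, 9.59, 9.66 and 9.62 in calorie restricted mice on 1 of 2 probe sets. Control replicate 5 lay within the calorie restricted range, and the difference of -0.55 ± 0.19 (SE) did not pass (limma adjusted p = 0.0766). It passed without calorie restricted replicate 2, at -0.66 (adjusted p = 0.0357). The other probe set of Psmg3 had 0.20, the opposite direction. Psmg2, which works with Psmg1 on the alpha ring, had 6.62, 6.10, 6.91, 7.76 and 7.84 and 7.19, 7.40, 7.97, 8.11 and 8.05, 0.70 ± 0.37 (adjusted p = 0.220). Psmg1 and Psmg4 had differences of 0.28 and -0.34, and the base chaperones Psmd5, Psmd9 and Psmd10 had 0.18, -0.29 and 0.34.

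Set side by side, the structural groups had median log2 differences of 0.21 for the alpha ring, 0.03 for the beta ring, 0.24 for the inducible subunits, 0.13 for the base, 0.07 for the lid, 0.54 for the activators and 0.19 for assembly factors, against -0.15 over all tested probe sets. They rest on 7, 9, 2, 9, 10, 3 and 8 tested probe sets, and no group moved as a unit: each with over 2 probe sets held values on both sides of 0. Of 5 genes with several tested probe sets, Psmb1 and Psmb5 had them all in 1 direction, and Psmc3, Psmd11 and Psmg3 did not. The balance of calls moved with the scaling: 3 members were higher and 2 lower as deposited, 4 and 1 under quantile normalization, and 9 and 1 with arrays centred on their median, where the median of all tested probe sets went from -0.15 to -0.02 and 0.20. The whole array moved as well: of all 7453 tested probe sets 306 were higher and 577 lower as deposited. These counts were 319 and 284 under quantile normalization, and 849 and 190 with centring. Leaving out calorie restricted replicates 3 and 5 left 2 higher, Psmd1 and Psmd7, and 1 lower, Psmb5. Without control replicate 2, 3, 4 or 5 or calorie restricted replicate 3, Psmd1 was the 1 member higher, and without calorie restricted replicate 2, 6 were higher and 3 lower. Without calorie restricted replicate 2 the counts over all tested probe sets were 420 higher and 858 lower.

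Proteasome partners outside the Psm symbols were read from the same fit. Calls made up 20% of their tested probe sets, 10% of those of the ubiquitin system and 9.09% of those of class I antigen processing. Among all tested probe sets 11.8% were called, 4.11% higher and 7.74% lower. Of 10 tested probe sets, 2 rose and 0 fell: Txnl1, a thioredoxin-like protein bound to the regulatory particle, at 1.65 ± 0.27 (SE; limma adjusted p = 0.00755) and Sem1, the smallest lid subunit, at 0.75 ± 0.22 (adjusted p = 0.0451). Neither overlapped between diets, and the probe set of Sem1 has the suffix r. Nfe2l1, the transcription factor known to induce proteasome genes, had -1.59 ± 0.58 and -0.47 ± 0.32 on its probe sets and did not pass (adjusted p = 0.0861 and 0.322). These became -0.62 and 0.08 when calorie restricted replicates 3 and 5 were dropped. Sem1 then had 0.42 and no longer passed (adjusted p = 0.0825), while Txnl1 had 1.23 (adjusted p = 0.00372). Of 30 tested probe sets of the ubiquitin system 0 rose and 3 fell. Both probe sets of Ubqln1, a shuttle that carries ubiquitinated proteins to the proteasome, fell, at -1.31 and -1.72 (adjusted p = 0.00523 and 0.0147). Of 2 for the deubiquitinase Usp9x 1 fell, at -0.73 (adjusted p = 0.0471), and the other had 0.02. Of 11 tested probe sets of class I antigen processing, 0 rose and 1 fell, for Tapbp, which helps load peptides, at -0.76 (adjusted p = 0.0255), while its other probe sets had -0.69 and 0.02 and did not pass. The Tapbp probe set that fell has the suffix f. The probe sets of Ubqln1, Usp9x and Tapbp that fell also passed without calorie restricted replicates 3 and 5 (adjusted p from 0.00372 to 0.0456). With RNA quality in the fit, Txnl1 (1.01, adjusted p = 0.0231) and 1 probe set of Ubqln1 (-1.07, adjusted p = 0.0224) passed, and Sem1, Usp9x, Tapbp and the other probe set of Ubqln1 did not (adjusted p from 0.0698 to 0.350).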

How the data were processed

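The labels describe Trizol-extracted total RNA turned into biotin-labelled cRNA. The authors deposited 1 linear intensity per probe set and array, made with MAS5 per the submitters' processing notes, with version and settings not stated there. In the deposited intensity values the mean without the lowest and highest 2% was 500.2 to 500.4 on each array. Values under 1 (41 of 124880) were set to 1 and taken to log2. After 66 control probe sets were left out, those with a mean at or above the 40th percentile were tested, 7453 of 12422. Of the 12422, 10833 had 1 symbol, 396 several and 1193 none. limma 3.58.1 in R 4.3.3 compared the diets with lmFit and eBayes with a variance trend and no covariate, and was tested on simulated data. The members, gene lists and rules were chosen with earlier results of these data known. Called members, all probe sets of Psmb5 to Psmb10 and Psme1, and the 2 uncalled ones with the smallest p in each group are given per array. A total of 12 other settings and 10 left-out arrays were run, and 1 alternative, the other Psmb5 probe set, was added after the data were seen, as were the partner genes' fits without calorie restricted replicates 3 and 5 or with RNA quality. The labels name no batch. The number of arrays limits the precision. The p-values rest on the spread between arrays, 1 mouse each, in which differences between mice and in array quality cannot be told apart.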

Additional observations from a re-analysis of the deposited data

Results flagged for a closer look

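In 5 cases 1 array stood apart from the other arrays of its diet, by a gap over 0.71 of the range; 98 groups of 5 arrays were checked, and chance flags about 1 in 20 groups. Psma1 had a log2 signal of 7.75 in control replicate 4, against 8.61 to 8.79 in the other control arrays, and 9.02 in calorie restricted replicate 5, against 8.52 to 8.63. Calorie restricted replicate 5, the array with the highest 3' to 5' ratio, also stood apart for Psmb6, at 10.11 against 10.49 to 10.63, and for Psmc6, an ATPase of the base, at 12.45 against 11.10 to 11.40. Psmd9, a base chaperone, had 8.27 in calorie restricted replicate 4, against 8.99 to 9.10. None of these probe sets passed between diets.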

How the results depend on the processing

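The called directions of Psmd1, Psmd7, Psme1, Psmb5 and Psmc3 were kept in every setting that measured them, and Psmd1 alone passed in each. Members higher numbered 3, 9 with arrays centred on their median, and 1 to 6 with 1 array left out; members lower numbered 2, 1 under quantile normalization, array centring or when calorie restricted replicates 3 and 5 were dropped, 0 with RNA quality in the fit or when suffixed probe sets were dropped, and 0 to 3 with 1 array left out. Centring moved the group medians to 0.57 (alpha ring), 0.39 (beta ring), 0.60 (inducible), 0.48 (base), 0.42 (lid), 0.90 (activators) and 0.54 (assembly). With RNA quality they were -0.15 for the base, 0.30 for the lid, 0.12 for the activators, 0.056 for the alpha ring, -0.056 for the beta ring and 0.0013 for assembly factors; quantile normalization gave -0.023 for the base, and without replicates 3 and 5 the base had -0.0936. Without a filter the inducible subunits had -0.0356 and the activators 0.0944; at the 60th percentile the inducible subunits had 0.52 and the assembly factors -0.29. With 1 array left out, assembly factors ran from -0.0461 to 0.26. The Psmb8 to Psmb5 difference was 0.79 without replicates 3 and 5, where no exact p could pass. The labels do not say what the replicate numbers mean. Deviations of control and calorie restricted arrays of the same number were little correlated (-0.05 to 0.08), and 0 of 5 control arrays were closest to their own number. Given the RNA quality of calorie restricted replicates 3 and 5, this cannot exclude that the numbers pair the mice. With the replicate block 2 members were higher, Psmd1 and Psmd11, the latter not called in the main fit (limma adjusted p = 0.0450 with the block). The 2 lower were Psmb5 and Psmc3, while Psmd7 and Psme1 did not pass (limma adjusted p = 0.0547 and 0.0551). In that fit 540 of all probe sets passed in place of 883. Over all probe sets, 603 passed under quantile normalization, 333 with RNA quality and 268 to 1278 with 1 array left out. With arrays centred on their median 1039 passed, 849 higher and 190 lower. Where a value moved, the cause was not tested. Detection calls were not analysed here, so how far dim probe sets lie above background is unknown.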
